A study of Mus musculus with 12 samples.

Results

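The ligands of the tumour necrosis factor (TNF) superfamily were examined in newly made RNA of mouse macrophages, with 10 members listed by symbol: Tnf, Lta, Ltb, Tnfsf4, Tnfsf8, Tnfsf9, Tnfsf10, Tnfsf13b, Tnfsf14 and Tnfsf15. All 10 were among the 19937 genes measured, each by 1 probe set that names no other gene. The 12 arrays fell into 4 groups of 3. MPI-2 LPS and MPI-2 mock were a C57BL/6 line derived from fetal liver, grown in RPMI with 10% fetal calf serum and the growth factor GM-CSF. BMM LPS and BMM mock were macrophages differentiated from C57BL/6 bone marrow in DMEM with 10% fetal calf serum and M-CSF. The LPS groups received R-LPS (0.1 mg/ml per the labels), a lipopolysaccharide of the bacterial outer membrane that macrophages sense through Toll-like receptor 4, and the mock groups were unstimulated. All 12 samples carried 4-thiouridine for 60 min to tag RNA made in that time, so the signals follow transcription more closely than those of total RNA. In the LPS groups the labelling began 30 min after LPS and ended at 90 min. MPI-2 is a single line, and cell type, growth factor, medium and the runs of serial numbers in the sample descriptions go together, so they cannot be told apart. The titles call the 3 samples of a group biological replicates. No label says whether the BMM replicates came from separate mice, so p-values reflect the spread of these samples, which may be technical.

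TNF superfamily ligands are mostly made as membrane proteins that assemble as trimers, and some are cut off the cell surface by proteases. They bind receptors of the TNF receptor superfamily, which pass the signal through TRAF adaptors to NF-kB and MAP kinases, or through death domains to cell death. In macrophages Tnf is a textbook early response gene to LPS. Lta and Ltb, the lymphotoxins, are known mainly from lymphocytes, while Tnfsf4 (OX40 ligand) and Tnfsf9 (4-1BB ligand) are costimulators of T cells on antigen-presenting cells. Tnfsf10 (TRAIL) can trigger death of target cells and is known to be induced by interferon. Tnfsf13b (BAFF) supports B cell survival, Tnfsf14 (LIGHT) and Tnfsf15 (TL1A) act on lymphocytes among other cells, and Tnfsf8 is the CD30 ligand.

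Tnf, Lta and Ltb lie next to each other on chromosome 17, and Tnfsf15 and Tnfsf8 are neighbours on chromosome 4. The starts of Tnf, Lta and Ltb are shown because, of these adjoining genes, Tnf was called with LPS and the other two were not, a difference between genes that was not tested. The start of Tnfsf15 is shown as that of the member with the widest change in MPI-2, and that of Tnfsf10 as a member that changed with LPS in BMM. Each sequence is the RefSeq promoter window of build GRCm38.p6, 250 bases before to 50 bases after the annotated start, written 5′ to 3′ along the gene's strand. Capitals mark matches to the motifs searched.
Tnf: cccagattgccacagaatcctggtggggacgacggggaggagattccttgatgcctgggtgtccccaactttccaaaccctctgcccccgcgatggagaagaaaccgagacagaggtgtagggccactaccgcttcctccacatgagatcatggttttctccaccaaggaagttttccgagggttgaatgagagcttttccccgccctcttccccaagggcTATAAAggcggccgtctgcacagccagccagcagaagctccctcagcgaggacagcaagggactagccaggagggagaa
Lta: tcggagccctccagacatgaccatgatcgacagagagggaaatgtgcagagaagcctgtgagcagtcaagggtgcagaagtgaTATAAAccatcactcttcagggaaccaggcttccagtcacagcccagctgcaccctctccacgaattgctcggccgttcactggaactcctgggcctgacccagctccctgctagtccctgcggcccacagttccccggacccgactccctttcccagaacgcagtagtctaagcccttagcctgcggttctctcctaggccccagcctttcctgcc
Ltb: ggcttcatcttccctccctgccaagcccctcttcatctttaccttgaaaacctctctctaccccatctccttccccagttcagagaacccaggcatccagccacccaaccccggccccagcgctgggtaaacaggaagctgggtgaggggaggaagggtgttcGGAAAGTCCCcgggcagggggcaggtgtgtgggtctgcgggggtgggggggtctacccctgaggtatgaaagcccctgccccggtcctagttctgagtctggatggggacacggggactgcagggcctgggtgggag
Tnfsf10: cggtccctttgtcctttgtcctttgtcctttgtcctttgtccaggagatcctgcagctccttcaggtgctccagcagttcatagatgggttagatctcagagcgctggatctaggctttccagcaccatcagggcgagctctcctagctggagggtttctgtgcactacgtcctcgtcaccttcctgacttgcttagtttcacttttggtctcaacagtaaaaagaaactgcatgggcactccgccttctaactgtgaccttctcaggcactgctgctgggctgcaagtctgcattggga
Tnfsf15: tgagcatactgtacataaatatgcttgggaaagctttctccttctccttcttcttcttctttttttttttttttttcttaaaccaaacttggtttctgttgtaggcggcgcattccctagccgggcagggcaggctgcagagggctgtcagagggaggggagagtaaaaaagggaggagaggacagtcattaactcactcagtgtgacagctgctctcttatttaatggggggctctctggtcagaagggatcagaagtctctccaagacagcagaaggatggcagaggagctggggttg
These windows lie at chr17:35201958-35202257 (minus strand) for Tnf, chr17:35205302-35205601 (minus strand) for Lta, chr17:35194257-35194556 (plus strand) for Ltb, chr3:27316827-27317126 (plus strand) for Tnfsf10 and chr4:63745010-63745309 (minus strand) for Tnfsf15.

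The motifs were searched on both strands in the windows of 8 members. They were the TATA sequence TATAAA, the AP-1 type sequence TGANTCA, the interferon response type sequence GAAANNGAA and the NF-kB consensus. Tnf held TATAAA with its first base at position -29 relative to the start, and Lta held it at position -167. This motif was present in 13.6% of 32851 RefSeq promoter windows of the same length. Ltb held an NF-kB consensus match on the opposite strand, with its first base at position -87, and 8.46% of all windows held that consensus. The Tnfsf10 and Tnfsf15 windows held none of the 4 motifs. Among members whose windows are not shown, Tnfsf8 held GAAANNGAA and Tnfsf14 held TGANTCA. The windows of both annotated starts of Tnfsf13b overlap and hold the same TGANTCA match. It lies at position 40 relative to the first start and -127 relative to the second. The window of the second start also held GAAANNGAA. GAAANNGAA was present in 8.56% and TGANTCA in 7.81% of all windows. None of the matches overlapped another motif in these windows, and a match of letters is not evidence of binding.

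Values are RMA log2 signals, and a difference of 1 is a 2-fold change in signal. Signals of different probe sets do not compare levels between genes. The background level was 3.36, the 95th percentile of 1027 olfactory receptor genes. Of the 10 ligands, 4 had every group mean above it and 2, Lta and Tnfsf8, lay under it on every array. All 9 measured macrophage markers, Adgre1 and Csf1r among them, were above background in every group. Their summed linear signal was 4990 to 5172 in MPI-2 LPS, 4133 to 4506 in MPI-2 mock, 4979 to 5785 in BMM LPS and 6527 to 7123 in BMM mock. Single markers differed between the cell types in both directions. Fcgr1 averaged 3.93 in MPI-2 LPS, against 8.24 in BMM LPS, and Mertk 8.22 in MPI-2 LPS, against 5.07 in BMM LPS. Of 7 T cell markers, 1 was above background in MPI-2 LPS, 1 in MPI-2 mock, 1 in BMM LPS and 2 in BMM mock. Their summed signal was 47 to 53, 48 to 54, 57 to 67 and 62 to 85 in that order of groups. Cd3d and Cd3g stayed under background in all 4 groups, whereas Cd3e had means of 3.59, 3.69, 3.99 and 4.05, and Cd28 averaged 4.53 in BMM mock. In the same order, 6 B cell markers summed to 41 to 52, 41 to 43, 47 to 57 and 47 to 53, and 1, 0, 3 and 2 of them were above background. Cd79b and Pax5 averaged 3.56 and 3.57 in BMM LPS and 3.53 and 3.44 in BMM mock. Blk averaged 3.45 in MPI-2 LPS and 3.48 in BMM LPS, while Ms4a1, Cd79a and Cr2 averaged under background in all 4 groups. The 6 natural killer cell markers summed to 38 to 40, 38 to 42, 39 to 47 and 36 to 42, and the 6 dendritic cell markers to 61 to 67, 58 to 65, 64 to 75 and 58 to 67. The 6 neutrophil markers summed to 50 to 54, 43 to 46, 49 to 60 and 53 to 60, and the 5 endothelial markers to 43 to 44, 41 to 46, 57 to 60 and 52 to 59. The 5 fibroblast markers summed to 75 to 84, 116 to 130, 81 to 94 and 72 to 91. Of these, 4, 3, 4 and 4 were above background in that order of groups. Col1a1 averaged 4.61, 4.42, 4.95 and 4.99, and Pdgfra had means of 4.41 in MPI-2 LPS and 6.13 in MPI-2 mock. Of the endothelial markers, 2, 2, 4 and 3 were above background, and of the dendritic cell markers 2, 2, 4 and 3. Natural killer cell markers above it numbered 1 in each group, and neutrophil markers 2, 1, 2 and 2. The part of such cells in the results was not tested. Arrays of a group correlated at 0.994 to 0.996 in MPI-2 LPS, 0.994 to 0.995 in MPI-2 mock, 0.975 to 0.988 in BMM LPS and 0.978 to 0.989 in BMM mock. The BMM arrays thus varied more among themselves, and the interquartile range of signal was narrowest in BMM LPS (2.382 to 2.693) and widest in MPI-2 mock (3.055 to 3.209).

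LPS raised Tnf, Tnfsf9 and Tnfsf15 in both kinds of macrophage, and it raised Tnfsf4, Tnfsf10 and Tnfsf13b in BMM without a call in MPI-2. In MPI-2, 3 ligands rose, 0 fell and 7 did not pass the test, where 5.17% of all genes were called higher and 9.58% lower. With only the MPI-2 groups fitted, 1854 genes were called higher and 3172 lower, against 1031 and 1910, while the count of ligands stayed at 3. In BMM, 6 ligands rose, 0 fell and 4 did not pass, where 10.3% of all genes were called higher and 15.4% lower. The median log2 change with LPS over the 10 ligands was 0.15 in MPI-2, against 0.02 over all genes, and 1.2 in BMM, against 0.04 over all genes. In these bulk cultures, a change in the share of cells making a transcript and a change per cell cannot be told apart. At an unadjusted p under 0.05, too, 0 ligands were lower with LPS in either cell type. A gene was called where limma's p-value, adjusted over all 19937 genes, was under 0.05.

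**Figure D1:**
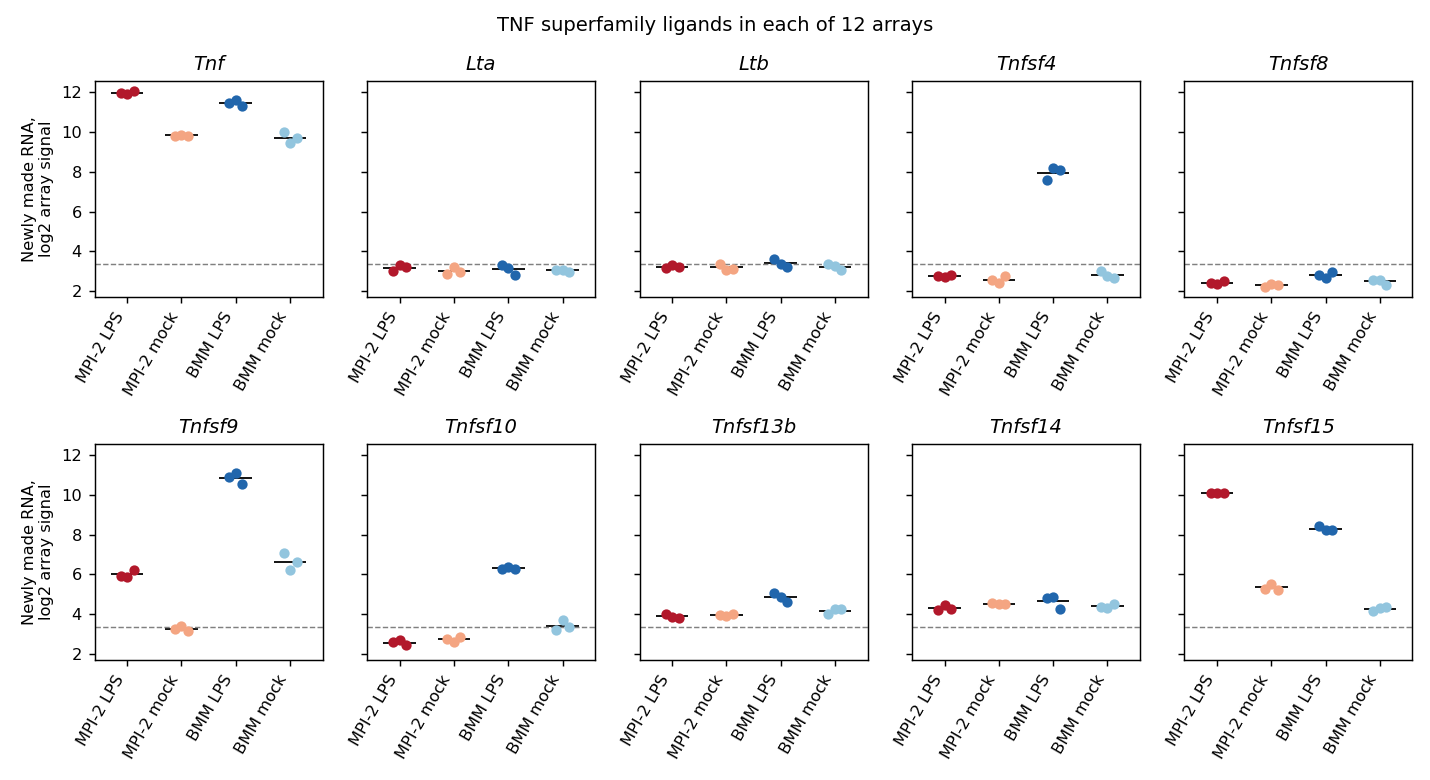
Log2 array signal of newly made RNA for each of the 10 ligands (vertical axis) in MPI-2 LPS, MPI-2 mock, BMM LPS and BMM mock (horizontal axis), with 1 point per array, a bar at the group mean and a dashed line at the background level of 3.36. Tnfsf4 lies between 7.6 and 8.19 in BMM LPS and under the line in the other 3 groups, while Tnfsf15 is highest in MPI-2 LPS.

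Tnf, the founding cytokine of the family, had signals of 11.95, 11.9 and 12.08 in MPI-2 LPS, against 9.83, 9.88 and 9.79 in MPI-2 mock. In BMM LPS they were 11.46, 11.6 and 11.33, against 10.03, 9.44 and 9.69 in BMM mock. All LPS arrays lay above all mock arrays in both cell types. Tnf rose by 2.14 ± 0.14 on the log2 scale in MPI-2 (SE, 4.41-fold, adjusted p = 6.21e-08) and by 1.74 ± 0.14 in BMM (3.33-fold, adjusted p = 1.87e-07). The responses differed by 0.40 (MPI-2 minus BMM, 95% interval -0.03 to 0.84, adjusted p = 0.256), which did not pass the test. Already in mock cells the Tnf signal was far above background, at 9.84 ± 0.043 in MPI-2 mock and 9.72 ± 0.29 in BMM mock (SD, n = 3 each).

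Lta and Ltb, the lymphotoxin genes on either side of Tnf, were at or near background and did not pass the test in either cell type. Lta ranged from 3.01 to 3.32 in MPI-2 LPS, 2.85 to 3.21 in MPI-2 mock, 2.8 to 3.33 in BMM LPS and 2.96 to 3.08 in BMM mock, all under background. Ltb, whose product joins that of Lta in a membrane-bound trimer, ranged from 3.15 to 3.29, 3.07 to 3.38, 3.23 to 3.62 and 3.05 to 3.37 in the same order. The groups overlapped for both genes. With LPS the 95% intervals were -0.14 to 0.50 for Lta and -0.25 to 0.33 for Ltb in MPI-2, and -0.26 to 0.38 for Lta and -0.10 to 0.48 for Ltb in BMM. Adjusted p-values ran from 0.348 to 0.936, and at signals this near background a change would be understated. Nfkbil1, the measured gene beyond Lta, had means of 5.98 in MPI-2 LPS, 5.73 in MPI-2 mock, 5.92 in BMM LPS and 5.71 in BMM mock and did not pass the test with LPS in either cell type (adjusted p = 0.402 in MPI-2 and 0.362 in BMM).

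Tnfsf15, whose product TL1A binds the death domain receptor encoded by Tnfrsf25, showed the widest rise of the 10 ligands in MPI-2. Its signals were 10.11, 10.11 and 10.08 in MPI-2 LPS, against 5.26, 5.53 and 5.22 in MPI-2 mock. They were 8.43, 8.21 and 8.22 in BMM LPS, against 4.15, 4.31 and 4.38 in BMM mock. No group overlapped another. The rise was 4.76 ± 0.12 in MPI-2 (27.1-fold, adjusted p = 9.2e-13) and 4.01 ± 0.12 in BMM (16.1-fold, adjusted p = 4.54e-12). Tnfsf15 was the only ligand whose response was called larger in MPI-2, by 0.75 ± 0.18 (95% interval 0.38 to 1.13, adjusted p = 0.00861). Tnfsf8, its neighbour on chromosome 4, stayed under background, and Tex48 on the other side had means of 2.64 in MPI-2 LPS, 2.76 in MPI-2 mock, 2.62 in BMM LPS and 2.74 in BMM mock.

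Tnfsf9, the 4-1BB ligand gene, also rose in both cell types but from unequal starting signals. It had 5.94, 5.87 and 6.21 in MPI-2 LPS, against 3.25, 3.39 and 3.16 in MPI-2 mock, where 1 of 3 arrays was above background. BMM LPS gave 10.89, 11.08 and 10.56, against 7.08, 6.2 and 6.6 in BMM mock. The LPS-treated MPI-2 arrays overlapped the untreated BMM arrays, and their means differed by 0.62 (BMM mock higher, adjusted p = 0.0193). LPS raised Tnfsf9 by 2.74 ± 0.19 in MPI-2 (6.68-fold, adjusted p = 1.11e-07) and by 4.22 ± 0.19 in BMM (18.6-fold, adjusted p = 2.93e-10). The response was smaller in MPI-2 by 1.47 on the log2 scale (-1.47 ± 0.27, 95% interval -2.06 to -0.89, adjusted p = 0.0016). The MPI-2 response is taken from a mock mean, 3.27 ± 0.12, that lay under background, so it may be understated and the difference of responses overstated in size.

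Tnfsf4, the OX40 ligand gene, had the sharpest contrast between the cell types. Its signals were 2.75, 2.69 and 2.81 in MPI-2 LPS, against 2.56, 2.4 and 2.78 in MPI-2 mock. They were 7.6, 8.19 and 8.12 in BMM LPS, against 2.99, 2.74 and 2.68 in BMM mock. All 9 arrays outside BMM LPS were under background, so no response could be measured in MPI-2 and the rise in BMM was at least 24.3-fold, where the fit gave 5.17 ± 0.16 on the log2 scale (adjusted p = 4.54e-12). In MPI-2 the difference was 0.17 ± 0.16 (adjusted p = 0.643), with both groups under background. The responses differed by -5.00 ± 0.23 (MPI-2 minus BMM, 95% interval -5.48 to -4.51, adjusted p = 2.1e-09). Its measured neighbours on chromosome 1, Tex50 and Tnfsf18, had means of 2.54 and 2.83 in BMM LPS, against 2.29 and 2.51 in BMM mock, all under background.

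Tnfsf10, the gene of the death ligand TRAIL, had signals of 2.58, 2.68 and 2.46 in MPI-2 LPS, against 2.75, 2.61 and 2.87 in MPI-2 mock. BMM LPS gave 6.28, 6.35 and 6.29, against 3.22, 3.68 and 3.33 in BMM mock, where 1 of 3 arrays was above background. The MPI-2 groups overlapped and lay under background on every array, while the BMM groups were far apart. Tnfsf10 rose by 2.90 ± 0.13 in BMM (7.45-fold, adjusted p = 3.15e-10) and differed by -0.17 ± 0.13 in MPI-2 (adjusted p = 0.559). The difference of responses was -3.07 ± 0.19 (95% interval -3.47 to -2.66, adjusted p = 4.15e-08). With both MPI-2 groups under background, that size rests on the BMM change. Nceh1, beside Tnfsf10 on chromosome 3, went the other way, by -0.91 in MPI-2 (adjusted p = 0.00129) and -2.87 in BMM (adjusted p = 4.38e-09).

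Tnfsf13b, which encodes the B cell survival factor BAFF, had a smaller response. Its signals were 4.01, 3.84 and 3.8 in MPI-2 LPS, against 3.97, 3.88 and 3.99 in MPI-2 mock. They were 5.07, 4.85 and 4.61 in BMM LPS, against 3.99, 4.27 and 4.28 in BMM mock. The MPI-2 groups overlapped and the BMM groups did not. The rise in BMM was 0.66 ± 0.14 (1.58-fold, adjusted p = 0.00165), or 1.01 after a further quantile normalization, and the difference in MPI-2 was -0.06 ± 0.14 (adjusted p = 0.885). The responses differed by -0.73 ± 0.19 (95% interval -1.14 to -0.31, adjusted p = 0.0197). That call was lost without MPI-2 mock replicate 1 (-0.71, adjusted p = 0.0502) or 3 (-0.70, 0.0506), without MPI-2 LPS replicate 2 (-0.70, 0.0525) or 3 (-0.69, 0.0573), or with the number in the sample descriptions as a replicate block (-0.73, 0.0572).

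Tnfsf14, the LIGHT gene, was above background on all 12 arrays and was not called in any comparison of the deposited values. It ranged from 4.23 to 4.44 in MPI-2 LPS, 4.49 to 4.57 in MPI-2 mock, 4.25 to 4.88 in BMM LPS and 4.30 to 4.51 in BMM mock. Its LPS difference was -0.22 ± 0.15 in MPI-2 (adjusted p = 0.484) and 0.25 ± 0.15 in BMM (adjusted p = 0.271), and the groups overlapped in BMM and not in MPI-2. BMM LPS replicate 3, at 4.25, stood below the other two at 4.82 and 4.88. Without it, the BMM difference was 0.45 (adjusted p = 0.014) and the difference of responses -0.67 (adjusted p = 0.0122). With all arrays, the BMM difference also passed after cyclic loess (0.41, adjusted p = 0.038) or quantile normalization (0.49, adjusted p = 0.0415). Tnfsf8, the CD30 ligand gene, had 2.34 to 2.5 in MPI-2 LPS, 2.19 to 2.38 in MPI-2 mock, 2.67 to 2.96 in BMM LPS and 2.33 to 2.58 in BMM mock, all under background. Its LPS difference in BMM was 0.31 ± 0.12 (adjusted p = 0.0771), with 0.38 without BMM LPS replicate 2 (adjusted p = 0.0431). Tnc, the extracellular matrix gene next to Tnfsf8, rose at least 1.19-fold in MPI-2 (adjusted p = 0.00237) and at least 2.85-fold in BMM (adjusted p = 1.35e-06), as both mock groups (means of 2.75 in MPI-2 mock and 3.14 in BMM mock) were under background.

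**Figure D2:**
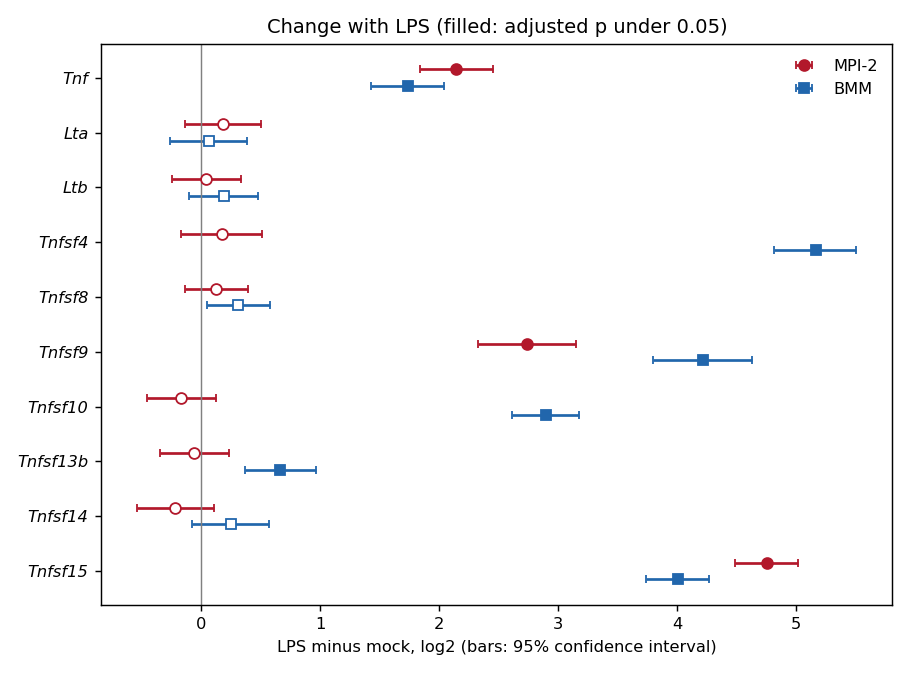
Log2 difference LPS minus mock (horizontal axis) for each ligand in MPI-2 (circles) and BMM (squares), with bars for the 95% confidence interval and filled symbols for an adjusted p under 0.05. Tnf, Tnfsf9 and Tnfsf15 are filled in both cell types, while Tnfsf4, Tnfsf10 and Tnfsf13b are filled in BMM and open in MPI-2.

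Tested directly, the LPS response differed between the cell types for 5 of the 10 ligands. It was larger in MPI-2 for 1 (Tnfsf15) and smaller for 4 (Tnfsf4, Tnfsf9, Tnfsf10 and, less firmly as given above, Tnfsf13b), where 7.08% of all genes were called higher and 6.27% lower. The median difference of responses was -0.33 over the ligands, against -0.02 over all genes.

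The signals of MPI-2 were then set against those of BMM within each treatment. With LPS, 2 ligands were higher in MPI-2 and 5 were lower, where 22.5% of all genes were called higher and 21.6% lower. Tnfsf15 was 3.51-fold higher in MPI-2 LPS (1.81 ± 0.12, adjusted p = 8.31e-09). Tnf was 1.43-fold higher (0.52 ± 0.14, adjusted p = 0.00827), a call lost after further cyclic loess (0.25, adjusted p = 0.344) or quantile normalization (0.36, adjusted p = 0.083). These scalings moved the median difference of all genes to -0.01 and -0.02, against -0.14 in the deposited values. Tnfsf4 was at least 24.3-fold lower in MPI-2 LPS (adjusted p = 1e-12) and Tnfsf10 at least 7.69-fold lower (adjusted p = 5.06e-12). Tnfsf9 differed by -4.84 ± 0.19 (adjusted p = 1.7e-11) and Tnfsf13b by -0.96 ± 0.14 (adjusted p = 3.03e-05). Tnfsf8 differed by -0.39 ± 0.12 (adjusted p = 0.0195) with every array under background, a call lost after cyclic loess (-0.19) or without BMM LPS replicate 3 (-0.31, adjusted p = 0.0652), MPI-2 LPS replicate 1 (-0.39, 0.0511) or MPI-2 LPS replicate 2 (-0.35, 0.0716). Tnfsf14 differed by -0.34 (adjusted p = 0.0811) and by -0.54 without BMM LPS replicate 3 (adjusted p = 0.00231). It also passed after cyclic loess (-0.38, adjusted p = 0.0409), quantile normalization (-0.46, adjusted p = 0.0416) or with array weights (-0.43, adjusted p = 0.0193).

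In mock cells 1 ligand was higher in MPI-2 and 2 were lower, where 20.6% of all genes were called higher and 18% lower. Tnfsf15 was higher in MPI-2 mock by 1.06 ± 0.12 (5.34 ± 0.17 in MPI-2 mock, against 4.28 ± 0.12 in BMM mock, adjusted p = 4.61e-06). Tnfsf9 was lower in MPI-2 mock (-3.36 ± 0.19, adjusted p = 1.46e-09), where 2 of 3 arrays were under background, so that size may be understated. Tnfsf10 was called lower as well (adjusted p = 0.000883), but with every MPI-2 mock array under background and a BMM mock mean of 3.41 ± 0.24 the fold is bounded only at 1.03 or more. Tnf differed by 0.11 (95% interval -0.19 to 0.42, adjusted p = 0.564).

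**Figure D3:**
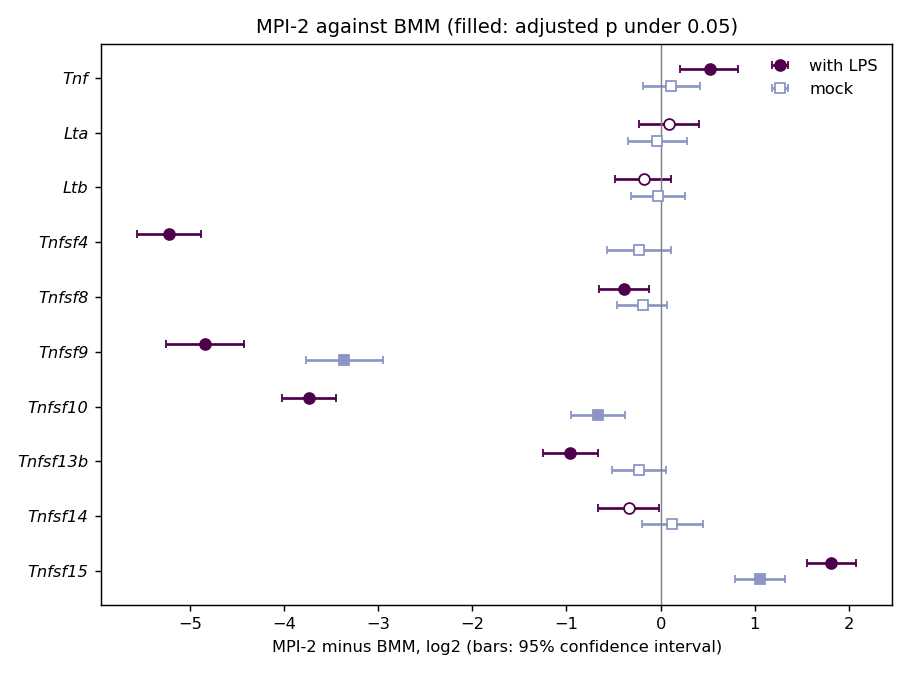
Log2 difference MPI-2 minus BMM (horizontal axis) for each ligand with LPS (circles) and in mock cells (squares), with bars for the 95% confidence interval and filled symbols for an adjusted p under 0.05. Tnfsf4 lies at -5.22 with LPS and at -0.23, with an open symbol, in mock cells, while Tnfsf9 is far left of 0 in both.

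Ordered by group mean, the ligands fell into different sequences. Tnf and Tnfsf15 ran MPI-2 LPS, BMM LPS, MPI-2 mock and BMM mock, and for Tnf the last pair overlapped. Tnfsf9 ran BMM LPS, BMM mock, MPI-2 LPS and MPI-2 mock. Tnfsf4, Tnfsf10 and Tnfsf13b were highest in BMM LPS, and of the other 3 groups only Tnfsf10 showed neighbours that did not overlap (BMM mock above MPI-2 mock). For Lta, Ltb and Tnfsf14 every pair of neighbouring groups overlapped, and for Tnfsf8 BMM LPS lay above BMM mock without overlap but did not pass the test.

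For each of the 8 ligands with a group mean above background, the genes most like it in signal were taken by Pearson's r over the 12 arrays, among 12502 genes. The 12 points fall into 4 groups and share those group means, so r describes the group pattern. Tnf was followed by Cd69, an early activation antigen (r = 0.985), Il12b, a subunit of interleukin 12 (0.985), and Phlda1 (0.984). Il12b had means of 8.18 in MPI-2 LPS, 2.63 in MPI-2 mock, 7.40 in BMM LPS and 2.82 in BMM mock. Tnfsf15 was followed by Ccl22, a chemokine gene (0.994), Arhgef3 (0.988) and Irak3, a negative regulator of Toll-like receptor signalling (0.983).

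Tnfsf4 was closest to Ifnb1, the interferon beta gene (r = 0.997), Vcam1, an adhesion molecule gene (0.996), and Itgb8, an integrin subunit gene (0.995). Ifnb1 had means of 2.71 in MPI-2 LPS, 2.56 in MPI-2 mock, 8.96 in BMM LPS and 2.84 in BMM mock. Tnfsf4, Ifnb1, Vcam1 and Itgb8 all averaged under background outside BMM LPS. Their r values thus rest on BMM LPS alone, the group through which each passed the filter. Tnfsf10 was closest to Trim21 (0.998), Ednrb (0.994) and Ifi208 (0.993), of which Trim21 and Ifi208 are known as interferon-induced genes. Trim21 rose by 2.31 in BMM (adjusted p = 6.66e-10) and differed by -0.21 in MPI-2 (adjusted p = 0.325). Tnfsf9 was closest to Abcc1, a drug efflux transporter gene (0.992), Ifit1, an interferon-induced gene (0.99), and Slc2a6, a sugar transporter family gene (0.989). Ifit1 rose in both cell types, by 2.25 in MPI-2 (adjusted p = 6.82e-09) and 3.78 in BMM (adjusted p = 6.56e-12). Weaker matches were found for Tnfsf13b (Aida 0.975, Ppm1k 0.974 and Qpct 0.962), Tnfsf14 (Sik3 0.899, Maml3 0.895 and Tsc22d2 0.884) and Ltb (Chrnb2 0.896, Zfp575 0.883 and Olfr605 0.877). Ltb, Chrnb2, Zfp575 and Olfr605 averaged above background only in BMM LPS, and only just (3.41, 3.52, 3.44 and 3.59). The filter on group means thus fixed part of their likeness, and nothing is read from it.

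Among the receptors of the superfamily, Fas rose and Tnfrsf21 fell with LPS in both cell types, and Cd40 rose in BMM. Of 28 receptor genes, 3 rose and 4 fell with LPS in MPI-2, where 5.17% of all genes were called higher and 9.58% lower. In BMM 9 rose and 4 fell, where the shares were 10.3% and 15.4%. The median change of the receptor genes was 0.08 in MPI-2, against 0.02 over all genes, and 0.13 in BMM, against 0.04. Fas, a death receptor gene, rose in both, by 1.87 ± 0.13 in MPI-2 (adjusted p = 8.2e-08) and 2.52 ± 0.13 in BMM (adjusted p = 8.23e-10). Tnfrsf21, encoding death receptor 6, fell by 1.18 in MPI-2 (adjusted p = 4.36e-06) and by 1.36 in BMM (adjusted p = 3.81e-07). Cd40, the receptor gene for CD40 ligand, rose by 4.50 ± 0.16 in BMM (adjusted p = 1.39e-11) and differed by 0.23 in MPI-2 (adjusted p = 0.48). Its response differed by -4.28 ± 0.22 between the cell types (adjusted p = 7.14e-09).

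Relt fell by 1.94 in MPI-2 (adjusted p = 1.26e-06) and differed by -0.05 in BMM (adjusted p = 0.86), with a difference of responses of -1.89 (adjusted p = 6.24e-05). Tnfrsf22 fell by 1.06 in MPI-2 (adjusted p = 3.01e-05) and by 1.39 in BMM (adjusted p = 6.88e-07). Tnfrsf26 fell by 1.51 in BMM (adjusted p = 5.17e-07), with 0.19 in MPI-2 (adjusted p = 0.486). Tnfrsf22, Tnfrsf23 and Tnfrsf26 are related copies whose probes may take up signal of each other. With LPS 10 receptors were higher and 7 lower in MPI-2, where 22.5% and 21.6% of all genes were called so, and the 7 became 4 without MPI-2 LPS replicate 3. In mock cells 9 were higher and 5 lower, where the shares of all genes were 20.6% and 18%, and the 5 became 3 after quantile normalization. Tnfrsf11a, the receptor gene for RANK ligand, differed by -4.22 with LPS (MPI-2 minus BMM, adjusted p = 6.26e-11) and by -3.23 in mock cells (adjusted p = 1.82e-09).

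**Figure D4:**
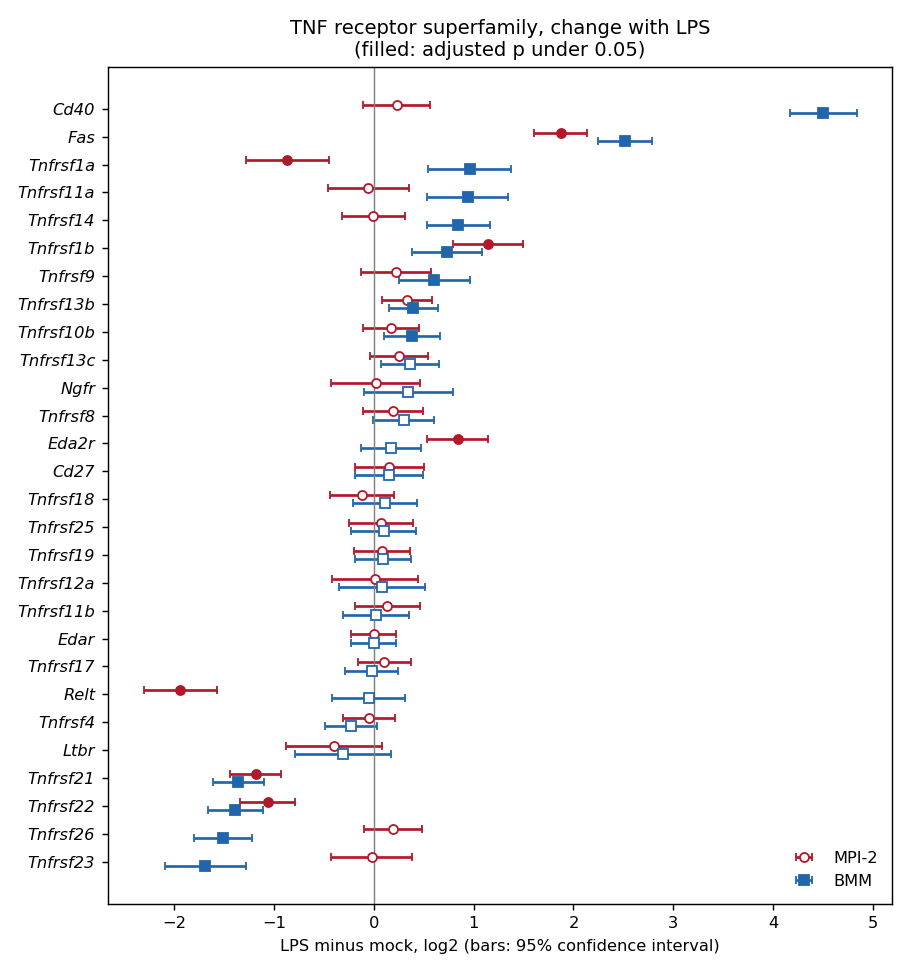
Log2 difference LPS minus mock (horizontal axis) for 28 TNF receptor superfamily genes in MPI-2 (circles) and BMM (squares), with bars for the 95% confidence interval and filled symbols for an adjusted p under 0.05. Tnfrsf1a lies left of 0 in MPI-2 (-0.87) and right of 0 in BMM (0.96), and Cd40 reaches 4.5 in BMM.

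Some of the receptors known to bind the 10 ligands are named here after their values were seen. Tnfrsf1a and Tnfrsf1b encode the receptors of TNF. Tnfrsf1a ranged from 7.83 to 7.91 in MPI-2 LPS, against 8.64 to 8.83 in MPI-2 mock, and from 8.11 to 8.77 in BMM LPS, against 7.14 to 8.0 in BMM mock. It fell by 0.87 in MPI-2 (adjusted p = 0.00591) and rose by 0.96 in BMM (adjusted p = 0.00158), and the responses differed by -1.82 ± 0.28 (adjusted p = 0.000295). Tnfrsf1b rose by 1.14 in MPI-2 (adjusted p = 0.000159) and by 0.73 in BMM (adjusted p = 0.00337), the BMM call being lost after cyclic loess (0.38, adjusted p = 0.178) or quantile normalization (0.36, 0.138).

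Tnfrsf9, the receptor gene for the Tnfsf9 product, ran opposite to its ligand between the cell types. Its means were 6.66 ± 0.23 in MPI-2 LPS, against 4.31 ± 0.16 in BMM LPS, and 6.44 ± 0.34 in MPI-2 mock, against 3.71 ± 0.077 in BMM mock (SD, n = 3 each). The differences were 2.34 with LPS (adjusted p = 1.2e-08) and 2.73 in mock cells (adjusted p = 2.79e-09). Tnfrsf14, the receptor gene for LIGHT, was under background in both MPI-2 groups (mean 3.29 in each) and averaged 5.46 in BMM LPS, against 4.62 in BMM mock, a rise of 0.84 (adjusted p = 0.000413). Tnfrsf4, the OX40 gene, did not pass the test with LPS in MPI-2 (-0.05, adjusted p = 0.887) or in BMM (-0.23, adjusted p = 0.188). Neither did Ltbr, the lymphotoxin beta receptor gene (-0.40, adjusted p = 0.339 in MPI-2 and -0.31, 0.363 in BMM), nor Tnfrsf8, the CD30 gene (0.19, adjusted p = 0.529 in MPI-2 and 0.30, 0.15 in BMM). Tnfrsf10b, a TRAIL receptor gene, was called in BMM (0.38, adjusted p = 0.0479) near background, a call lost under most alternatives, and gave 0.17 in MPI-2 (adjusted p = 0.557). Of the BAFF receptor genes, Tnfrsf13b gave 0.33 in MPI-2 (adjusted p = 0.0776) and was called in BMM (0.39, adjusted p = 0.0198), a call lost on leaving out BMM LPS replicate 1 (0.37, 0.0571), BMM mock replicate 2 (0.33, 0.0812) or BMM mock replicate 3 (0.39, 0.0545). Tnfrsf13c gave 0.25 in MPI-2 (adjusted p = 0.308) and 0.36 in BMM (adjusted p = 0.0693), and Tnfrsf17 was under background in every group. Tnfrsf25, the receptor gene for TL1A, was under background in every group, with means of 2.99 in MPI-2 LPS, 2.92 in MPI-2 mock, 3.17 in BMM LPS and 3.08 in BMM mock.

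Among signalling genes below the receptors, Tnfaip3, Traf1 and Cflar rose with LPS in both cell types, while Mlkl, Ripk3 and Traf5 differed in response. Of 34 measured genes of 38 listed, 11 rose and 3 fell in MPI-2, where 5.17% and 9.58% of all genes were called so. In BMM 18 rose and 6 fell, where the shares were 10.3% and 15.4%. The counts that fell ran from 2 to 6 over the alternatives and left-out arrays, in MPI-2 as in BMM. The median change of the 34 genes was 0.15 in MPI-2 and 0.58 in BMM, against 0.02 and 0.04 over all genes. Tnfaip3, encoding the NF-kB inhibitor A20, rose by 2.85 in MPI-2 (adjusted p = 3.49e-10) and by 2.24 in BMM (adjusted p = 2.11e-09). Traf1, an adaptor gene, rose by 2.43 (adjusted p = 2.28e-09) and 2.76 (adjusted p = 1.86e-10) in the same order, and Cflar, encoding the caspase 8 regulator c-FLIP, by 1.94 (adjusted p = 3.91e-07) and 2.14 (adjusted p = 4.83e-08).

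Mlkl, the executor of necroptosis, averaged 7.69 in BMM LPS, against 4.63 in BMM mock, a rise of 3.07 (adjusted p = 1.39e-09). In MPI-2 both its means, 3.31 with LPS and 3.34 in mock, were under background, and the responses differed by -3.09 (adjusted p = 2.59e-07). Ripk3, the kinase upstream of Mlkl, fell by 0.87 in MPI-2 (adjusted p = 0.00125) and rose by 1.28 in BMM (adjusted p = 1.68e-05), a difference of -2.15 (adjusted p = 8.74e-06). Traf5, another adaptor gene, rose by 2.14 in MPI-2 (adjusted p = 4.15e-07) and was called lower with LPS in BMM (-0.49, adjusted p = 0.0493). Its responses differed by 2.62 (MPI-2 minus BMM, adjusted p = 2.29e-06). Otulin, a deubiquitinase gene, gave 0.43 in MPI-2 (adjusted p = 0.0517) and was called lower with LPS in BMM (-0.52, adjusted p = 0.012). The difference of its responses was 0.95 (adjusted p = 0.00398). Over the list the difference of responses (MPI-2 minus BMM) was called above 0 for 5 genes, or 2 to 5 with 1 array left out. It was called below 0 for 8, where 7.08% and 6.27% of all genes were called so. A difference above 0 can also be a smaller fall, as for Map3k14 (-0.41 in MPI-2, adjusted p = 0.142, and -1.27 in BMM, adjusted p = 3.47e-05).

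Adam17 rose with LPS in MPI-2, and Rhbdf2 and Sppl2a rose in BMM. Of 8 genes for the release of membrane ligands, 2 rose and 1 fell in MPI-2, where 5.17% and 9.58% of all genes were called so, and 3 rose and 1 fell in BMM, where the shares were 10.3% and 15.4%. Over the alternatives and left-out arrays the MPI-2 counts ran from 1 to 4 and from 0 to 2. Adam17, the protease that sheds TNF, averaged 9.12 ± 0.024 in MPI-2 LPS, against 7.89 ± 0.056 in MPI-2 mock, a rise of 1.24 (adjusted p = 2.35e-05). In BMM it was among the genes called (0.53, adjusted p = 0.0137), but its groups overlapped and the call was lost after quantile normalization (0.26, adjusted p = 0.188) or without BMM mock replicate 1 (0.43, 0.0537) or 3 (0.48, 0.0557). Rhbdf2, which encodes the trafficking partner of ADAM17, rose by 1.28 in BMM (adjusted p = 2.67e-05), with 0.37 in MPI-2 (adjusted p = 0.187). Sppl2a, encoding an intramembrane protease, rose by 1.06 in BMM (adjusted p = 9.04e-05), with 0.25 in MPI-2 (adjusted p = 0.412). Their responses differed by -0.91 (adjusted p = 0.0178) and -0.81 (adjusted p = 0.0233). Adam10, another sheddase gene, fell by 1.04 in BMM (adjusted p = 0.000686), with -0.49 in MPI-2 (adjusted p = 0.114). Its difference of responses did not pass the test (0.54, adjusted p = 0.256).

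Regulators of Tnf mRNA stability formed a list of 12. Of these, 3 rose and 1 fell in MPI-2, where 5.17% and 9.58% of all genes were called so. In BMM 2 rose and 3 fell, where the shares were 10.3% and 15.4%. The 1 that fell in MPI-2 became 1 to 4, and the 2 that rose in BMM 1 to 3, over the alternatives and left-out arrays. Zc3h12a, the ribonuclease gene of Regnase-1, rose by 1.64 in MPI-2 (adjusted p = 1.76e-06), with 0.31 in BMM (adjusted p = 0.158) and a difference of responses of 1.33 (adjusted p = 0.000481). The BMM change of Zc3h12a passed without BMM mock replicate 1 (0.48, adjusted p = 0.0215). Mapkapk2, encoding the kinase MK2, rose by 1.18 in MPI-2 (adjusted p = 5.34e-05) and by 1.86 in BMM (adjusted p = 1.77e-07). Zfp36l2, encoding a protein that promotes decay of AU-rich mRNA, fell by 1.16 in MPI-2 (adjusted p = 0.00377) and by 3.14 in BMM (adjusted p = 1.19e-07). Its relative Zfp36l1 was at least 63.4-fold lower in MPI-2 mock than in BMM mock (3.03 ± 0.18 in MPI-2 mock, against 9.35 ± 0.12 in BMM mock, adjusted p = 3.21e-14). Zfp36, which encodes tristetraprolin, was lower in MPI-2 mock by 2.51 on the log2 scale (-2.51, adjusted p = 4.55e-09).

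Of the 6 other ligands of the superfamily measured of 8 listed, 0 were called with LPS in MPI-2 by limma (0 at an unadjusted p under 0.05). Of all genes, 5.17% were called higher there and 9.58% lower. In BMM 1 rose, where 10.3% of all genes were called higher and 15.4% lower. The ligand that rose, Tnfsf11 (RANK ligand), did so by 0.53 (adjusted p = 0.0136), a call lost without BMM mock replicate 3 (0.46, adjusted p = 0.0597) or BMM LPS replicate 1 (0.45, adjusted p = 0.0585).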

How the data were processed

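Newly made, 4-thiouridine-tagged RNA of 12 samples was measured on whole-transcript arrays. Per the submitters' processing notes, the deposited log2 values per probe set were made by the authors with RMA and affy, versions not given in the sources used here. The log base was taken from the method and the range (1.18 to 12.82). RMA values are relative within an array. The deposited arrays kept unequal spreads (interquartile range 2.382 to 3.209), and whether all went through RMA together is not stated. Precision is limited by the number of arrays, which carry no depth.

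Of 34760 probe sets, 21640 name 1 gene, 1321 several and 11799 are unnamed here. Symbols were updated through Entrez identifiers to RefSeq GRCm38.p6 (19855 genes matched). Each of 19937 genes was represented by its probe set of highest overall mean. Groups came from the sample labels. limma 3.58.1 in R 4.3.3 fitted 4 group means to all 12 arrays (8 residual degrees of freedom), with Benjamini-Hochberg adjustment over all genes in each of 5 comparisons and a threshold of 0.05. The fit was tested on simulated data. A fold against a group under background on every array used the background level as its floor. Members and gene lists were chosen with earlier results of these data known. From each list, up to 4 genes with the smallest adjusted p in a comparison, among those called with groups that did not overlap, were open to naming. The likeness genes were the 3 with the highest Pearson r among genes with a group mean above background. Alternatives covered scaling, filter, prior, samples fitted, array weights, replicate numbers and left-out arrays. Ripk1, Traf3, Chuk, Nfkb1, Tnfsf12 and Tnfsf13 were listed but not matched to a single-gene probe set.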

Additional observations from a re-analysis of the deposited data

Results flagged for a closer look

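The LPS response differed between MPI-2 and BMM, by the interaction term of the limma fit, for 5 ligands. The difference of responses (MPI-2 minus BMM, log2) was -5.00 for Tnfsf4 (adjusted p = 2.1e-09), -3.07 for Tnfsf10 (adjusted p = 4.15e-08) and -1.47 for Tnfsf9 (adjusted p = 0.0016). It was -0.73 for Tnfsf13b (adjusted p = 0.0197), a call lost on leaving out any of 4 MPI-2 arrays in turn, or with the description number as a replicate block (adjusted p = 0.0572). It was 0.75 for Tnfsf15 (adjusted p = 0.00861), where every array with LPS lay above every mock array in both cell types. Tnfsf4 was under background on every array of MPI-2 LPS, MPI-2 mock and BMM mock, and Tnfsf10 on every array of MPI-2 LPS and MPI-2 mock. Tnfsf9 was under it on 2 of 3 arrays of MPI-2 mock, so its difference of responses may be overstated in size.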

How the results depend on the processing

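Of 1080 values of the 10 ligands under the alternatives, 1053 kept their direction and their side of the threshold, 13 lost a call, 14 gained one and 0 reversed. With only the groups compared in the fit, 1854 genes rose and 3172 fell with LPS in MPI-2, against 1031 and 1910, and 1321 rose in BMM, against 2053. With array weights the MPI-2 counts were 1940 and 3243. The median gene SD was 0.109 in MPI-2 LPS and 0.12 in MPI-2 mock, against 0.204 in BMM LPS and 0.176 in BMM mock. The number of ligands called higher in MPI-2 LPS than in BMM LPS was 1 after cyclic loess and 1 after quantile normalization, against 2. Leaving out 1 array at a time, the difference of responses for Tnfsf13b ranged from -0.84 to -0.61, that for Tnfsf15 from 0.69 to 0.85 and that for Tnfsf9 from -1.70 to -1.26. Among other genes, the difference MPI-2 minus BMM changed sign after cyclic loess in mock cells for Traf1 (-0.39, against 0.01), Hnrnpd (-0.01, against 0.41) and Abhd13 (-0.02, against 0.40), and with LPS for Tnfrsf13b (-0.34, against 0.06, and -0.37 after quantile normalization), Traf2 (-0.45, against 0.03) and Map3k8 (-0.03, against 0.38). The cause was not tested.

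Whether the replicate numbers of the titles or of the descriptions pair the samples could not be settled, as differently numbered samples were not compared. Same-numbered samples of different groups correlated in their deviations from -0.18 to 0.28 over 18 pairs by title, with 5 above 0.1, and from -0.10 to 0.28 over 15 pairs by description, with 6 above 0.1. Between BMM mock and BMM LPS the values were 0.28, -0.09 and 0.03 for numbers 1, 2 and 3, by title as by description. With the title number as a replicate block, 3 ligands rose in MPI-2 and 6 in BMM with LPS, the same counts as without it. With the description number as a replicate block, Tnfsf13b lost its call for the difference of responses (-0.73, adjusted p = 0.0572). Signal near background limits what can be seen of Lta, Ltb and Tnfsf8, and the filter on low values left Lta and Tnfsf8 out.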
